A study of Homo sapiens with 30 samples.

Results

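The question was whether 7 days of MS023, an inhibitor of Type I protein arginine methyltransferases, altered the transcriptional response of A549 cells to 3 h of dexamethasone (Dex). A549 is a human lung adenocarcinoma line, and PRO-seq (precision run-on sequencing) read nascent transcription from engaged RNA polymerases that add a labelled nucleotide in permeabilised cells. The comparison used 8 of the 30 libraries, in 4 of the 15 groups with 2 replicates each, and covered all 22919 genes that passed a filter on low counts. The groups were untreated cells, cells given Dex at 100 nM for 3 h, cells given MS023 at 1 µM for 7 days, and cells given MS023 for 7 days and then Dex for 3 h. The labels put every group in 0.01% DMSO and title the untreated samples as 15 min, so the untreated cells matched neither the 3 h nor the 7 days in time. The interaction of a gene is its log2 response to Dex after MS023 minus its log2 response to Dex without inhibitor. The labels do not say whether the 2 samples of a group came from separate cultures, so p-values measure only the spread between these samples, which may be technical.

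The glucocorticoid receptor, encoded by NR3C1, resides in the cytoplasm with chaperones until a ligand such as Dex binds it. It then enters the nucleus, activates genes by binding DNA, and lowers others, many of them inflammatory genes driven by NF-kB and AP-1. Type I enzymes, among them PRMT1 and CARM1 (PRMT4), place asymmetric dimethylarginine on histones and RNA-binding proteins. Both have been described as coactivators of nuclear receptors. MS023 blocks the enzymes' activity, so the transcription of their genes is no check of the drug.

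The 8 libraries held 8995811 to 13069598 counts. Mitochondrial genes took 69.2% to 76.0% of counts in the 4 libraries without MS023 and 58.7% to 59.8% in the 4 with MS023, without overlap. Their part in the results was not tested beyond a fit without these genes, which called 53 interactions. Keratin genes KRT8 (133 to 576 CPM) and KRT18 (56.0 to 283 CPM) marked the epithelial line. Leukocyte genes PTPRC and LYZ reached at most 0.153 and 0.108 CPM. All other levels are CPM with counts scaled to library size with the trimmed mean of M-values (TMM). They compare 1 gene across libraries, not genes with each other. Gene positions are those of GENCODE 29 on GRCh38.

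The Dex response was of like extent in both arms, and few genes passed the test of the difference. Dex alone changed 2410 genes (10.5% of those tested; 1400 higher, 1010 lower), and Dex after MS023 changed 2543 (11.1%; 1310 higher, 1233 lower). Called means a Benjamini-Hochberg adjusted p below 0.05 in edgeR's quasi-likelihood test. Both arms shared 1210 called genes, of which 1207 moved in the same direction. The interaction was called for 51 genes, or 0.223% of those tested, with 18 higher (0.0785%) and 33 lower (0.144%), while 2087 genes had an unadjusted p below 0.05. Their interactions were 0.63 to 2.71 in absolute log2 terms, with a median of 0.99. Of the 1200 genes called for Dex alone but not after MS023, 23 passed the interaction test, and of the 1333 called only after MS023, 14 did. Most calls made in 1 arm alone thus came without a called difference between arms. In simulated data 25.4% of true log2 interactions of 1 and 79.1% of those of 2 were recovered, and none of those of 0.5. Scaled by total counts alone, no interaction was called (1260 at an unadjusted p below 0.05), and DESeq2 called 39, of which 31 were among the 51. The count of 51 was 10 without the first untreated library, 25 without the second, 82 and 10 without the first and second Dex library, 26 and 12 without the MS023 libraries, and 14 and 34 without those of MS023 and Dex. SGK1, NFKBIZ, SPRY4, CCN1, FGA and NFKB2 were the 6 genes called in all 8 of these fits, and all 51 kept their direction in them.

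**Figure D1:**
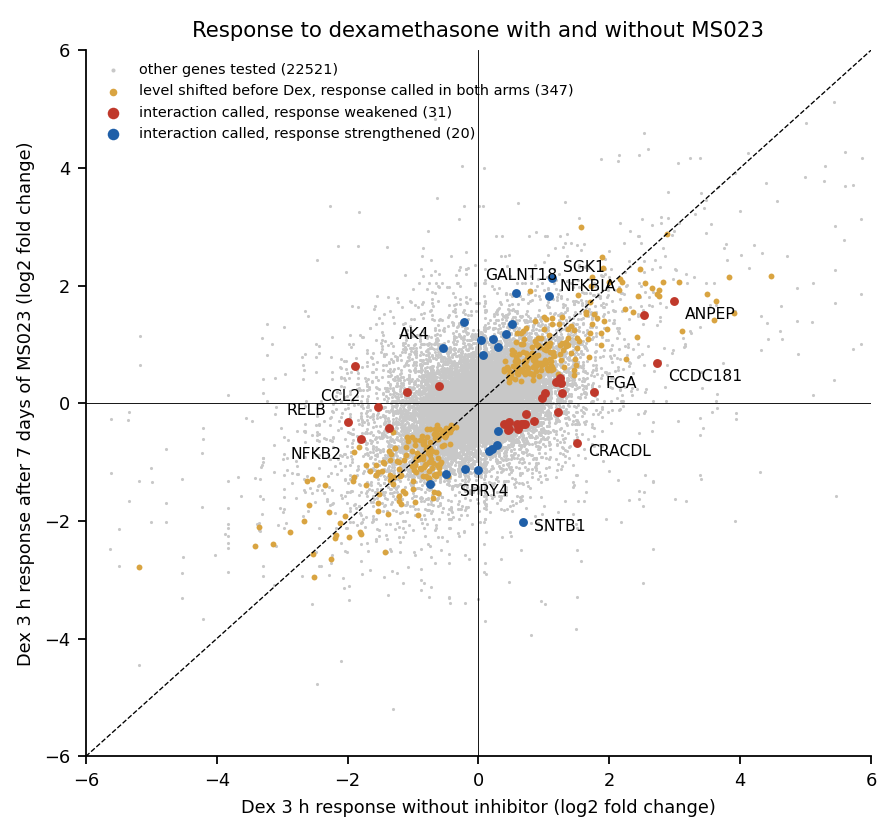
Log2 response to Dex at 3 h without inhibitor (x axis) and after 7 days of MS023 (y axis), 1 point per gene, with the dashed line at equal responses. The 31 weakened genes (red) lie toward 0 on the y axis or past it, the 20 strengthened genes (blue) lie farther out on the y axis than on the x axis, and 14 genes lie outside the axes.

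The 51 genes fell into 31 whose response to Dex was weakened and 20 whose response was strengthened. Among the weakened, 23 had a response to Dex alone that was no longer called after MS023 (lost), 5 had one called in the same direction but smaller (reduced), and 3 had one called in the opposite direction (reversed). Among the strengthened, 14 were called only after MS023 (gained) and 6 were called in both arms and larger after MS023 (enlarged). These classes were built from the same calls as the interaction and describe it.

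SGK1, the serum- and glucocorticoid-regulated kinase and a classical target of the receptor (chr6:134169246-134318112, minus strand), gave the most stable enlarged response. It stood at 24.1 and 28.2 CPM in untreated cells, 56.4 and 58.0 with Dex, 24.6 and 25.6 after MS023, and 98.1 and 121 after MS023 and Dex. The untreated and MS023 libraries overlapped, and both libraries of MS023 and Dex were above every other. Dex raised SGK1 by 1.13 alone and by 2.12 after MS023 on the log2 scale. The interaction was 0.99 (SE 0.168), with an adjusted p of 0.00220 by the edgeR quasi-likelihood and Benjamini-Hochberg procedure.

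LAMA3, a laminin chain of epithelial basement membranes, was another enlarged gene, with an interaction of 0.83. It stood at 24.1 and 22.9 CPM in untreated cells, 32.5 and 34.6 with Dex, 12.7 and 14.2 after MS023, and 34.9 and 33.1 after MS023 and Dex. Its 2 Dex groups overlapped, while the MS023 libraries without Dex were the lowest. KRT87P, a keratin pseudogene with an interaction of 0.76, likewise started lower after MS023, with 38.7 and 40.4 CPM against 118 and 99.8 in untreated cells. A gene on the other strand shares exon bases with it, and reads of keratin relatives may be shared. Downward responses were enlarged at GDF15, a stress-induced cytokine gene (-0.71), and at DUSP4, a MAP kinase phosphatase gene (-0.63). LAMA3 was not called in any of the 8 fits that left out 1 library, GDF15 was called in 1, and KRT87P and DUSP4 in 3 each. LAMA3, KRT87P and DUSP4, like ITGA5, S1PR3, COL27A1, ADM and the other genes given to complete a class, were named after their values were seen.

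The 7 gained falls were at SPRY4, CCN1, CCN2, SNTB1, NFKBIZ and the histone genes H4C1 and H4C5, none of them called for Dex alone. SPRY4, a feedback inhibitor of receptor tyrosine kinase signalling (chr5:142310427-142326455), stood at 16.7 and 17.6 CPM in untreated cells, 18.4 and 15.8 with Dex, 22.8 and 23.7 after MS023, and 10.8 and 10.5 after MS023 and Dex. The Dex libraries straddled the untreated ones, the MS023 libraries were the highest, and those of MS023 and Dex the lowest. Its response after MS023 was -1.13, and the interaction was -1.12 (SE 0.198), with an adjusted p of 0.00239 by the edgeR quasi-likelihood and Benjamini-Hochberg procedure. CCN1, a matricellular protein gene known as a target of YAP and SRF (chr1:85580761-85583962), stood at 24.5 and 26.4 CPM in untreated cells, 27.1 and 29.9 with Dex, 33.8 and 32.4 after MS023, and 19.0 and 18.8 after MS023 and Dex. All 4 groups were separate, with the 2 libraries of MS023 and Dex below the untreated ones. Its interaction was -0.97 (SE 0.169). CCN2, of the same family, had an interaction of -0.99, with 7.56 and 11.4 CPM in untreated cells, 10.9 and 12.2 with Dex, 23.4 and 24.0 after MS023, and 14.4 and 14.6 after MS023 and Dex. MS023 alone had the highest CCN2 levels, and the untreated and Dex groups overlapped. CCN2 was called in 2 of the 8 fits that left out a library, 1 gene on the other strand shares exon bases with it, and strand was not stated for the counting. SNTB1, a syntrophin gene, had the largest interaction among the strengthened (-2.71, SE 0.612). Its levels were 0.334 and 0.907 CPM in untreated cells, 0.957 and 1.10 with Dex, 5.95 and 5.79 after MS023, and 1.17 and 1.70 after MS023 and Dex. The MS023 libraries stood above all others, and the other groups held few counts. SNTB1 was called in 2 of the 8 fits that left out a library, and its exons overlap 2 genes on the opposite strand.

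Upward responses were gained at 7 genes, AK4, GALNT18, FZD5, TPM2, AC245041.1, SPSB2 and GGCX. AK4, a mitochondrial adenylate kinase gene (chr1:65147549-65232145, plus strand), stood at 7.45 and 9.37 CPM in untreated cells, 6.17 and 5.37 with Dex, 8.43 and 10.4 after MS023, and 17.1 and 19.2 after MS023 and Dex. Both libraries of MS023 and Dex lay above all others, and the Dex libraries were the lowest. Its interaction was 1.49 (SE 0.273), with an adjusted p of 0.00489 by the same edgeR quasi-likelihood and Benjamini-Hochberg procedure. Without the second untreated library this p was 0.0683, and without the second Dex library 0.0658 (same test). GALNT18, which encodes a protein of the family that starts O-linked glycosylation, rose by 1.87 after MS023 and had 0.58 without it (interaction 1.29). It was called in none of the 8 fits that left out 1 library. FZD5, a Wnt receptor gene, stood at 13.7 and 16.1 CPM in untreated cells, 17.3 and 17.5 with Dex, 21.6 and 19.5 after MS023, and 43.6 and 44.4 after MS023 and Dex. Its libraries of MS023 and Dex were the highest, with an interaction of 0.88. That interaction ran from 0.75 to 0.99 when 1 library was left out, and most such fits did not call it. TPM2, a tropomyosin gene (1.03), and AC245041.1 (1.60) had another order of groups. TPM2 stood at 40.9 and 34.2 CPM in untreated cells, 40.5 and 36.8 with Dex, 15.8 and 16.3 after MS023, and 34.3 and 33.4 after MS023 and Dex. The 2 MS023 libraries without Dex were the lowest, and those of MS023 and Dex met the lower end of the untreated range. AC245041.1 likewise stood at 3.12 and 2.17 CPM after MS023 against 7.67 and 8.56 in untreated cells. TPM2 was not called with DESeq2's size factors in the edgeR fit. When 1 library was left out, the interaction ran from 0.90 to 1.16 at TPM2 and from 1.37 to 1.89 at AC245041.1. Most such fits did not call either gene.

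The lost responses were 17 inductions and 6 repressions, where Dex alone had raised 1400 genes and lowered 1010, so no excess is read from the split. FGA, the fibrinogen alpha chain gene and an acute-phase gene (chr4:154583126-154590766), stood at 2.45 and 2.42 CPM in untreated cells, 8.93 and 7.69 with Dex, 14.1 and 17.1 after MS023, and 17.1 and 18.5 after MS023 and Dex. Every library with MS023 lay above both Dex libraries, which lay above the untreated ones. Dex alone raised FGA by 1.77, MS023 alone raised it by 2.67, and the response after MS023 was 0.19 (95% interval -0.10 to 0.48). Its interaction was -1.58 (SE 0.273), with an adjusted p of 0.00220 by the edgeR quasi-likelihood and Benjamini-Hochberg procedure, called in all 8 fits that left out a library. ITGA5, the integrin alpha 5 chain of the fibronectin receptor (chr12:54395261-54419460), showed the other form of loss. It stood at 11.3 and 9.57 CPM in untreated cells, 24.9 and 25.8 with Dex, 10.6 and 10.1 after MS023, and 12.4 and 10.9 after MS023 and Dex. The 2 Dex libraries stood above the other 6, where the untreated range overlapped that of MS023 and that of MS023 and Dex. The response was 1.28 alone and 0.17 after MS023, an interaction of -1.11 (SE 0.212). It shares exon bases with 1 gene on the other strand, and it was called in 5 of the 8 fits that left out a library.

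CRACDL had the largest weakened response among protein-coding genes whose mean level reached 2 CPM (-2.17, SE 0.440). It stood at 1.78 and 1.31 CPM in untreated cells, 4.15 and 4.64 with Dex, 2.34 and 2.82 after MS023, and 1.54 and 1.70 after MS023 and Dex. Dex alone gave the highest levels, and the libraries of MS023 and Dex lay within the range of the untreated ones. The CRACDL interaction ran from -2.40 to -1.96 when 1 library was left out, and most such fits did not call it. CCDC181, a coiled-coil protein gene, rose from 1.00 and 1.01 CPM to 7.12 and 6.35 with Dex and stood at 3.19 and 2.97 after MS023 and 5.05 and 4.87 after MS023 and Dex. Its interaction was -2.05, and it was called in none of the 8 fits that left out a library. S1PR3, a receptor for sphingosine 1-phosphate, rose by 0.97 with Dex alone against 0.08 after MS023 (-0.89, called in 5 of the 8 such fits). GMCL1, ETFB, ROMO1 and MMD also lost an induction, with interactions of -0.92, -0.91, -0.84 and -1.07. ETFB shares exons with a gene on its own strand, so its counts are uncertain. The noncoding genes AC027373.1 (-1.38) and PSMG3-AS1 (-1.16) lost an induction as well. When 1 library was left out, these interactions ran from -1.56 to -1.20 and from -1.31 to -0.96. Most such fits did not call either gene. PSMG3-AS1 shares exon bases with 1 gene on the other strand.

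The lost repressions were at RELB, CCL2, GFPT2, COL27A1, HERC4 and the antisense RNA AL354813.1. GFPT2, an enzyme gene of hexosamine synthesis, stood at 11.6 and 10.7 CPM in untreated cells, 4.68 and 5.74 with Dex, 5.6 and 4.63 after MS023, and 5.2 and 6.42 after MS023 and Dex. The 2 untreated libraries were high, and the other 3 groups overlapped. COL27A1, a fibrillar collagen gene, instead overlapped before Dex (20.3 and 21.8 CPM after MS023 against 24.6 and 21.1 untreated), and under Dex it stood at 17.1 and 14.5 CPM with MS023 against 8.08 and 9.65 without it. Its interaction was 0.95, called in 1 of the 8 fits that left out a library.

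The 5 reduced responses were at ANPEP, JPH2, TENT5B, PARD6B and NFKB2. ANPEP, the aminopeptidase N gene, stood at 2.11 and 2.62 CPM in untreated cells, 20.4 and 17.2 with Dex, 6.44 and 7.38 after MS023, and 21.7 and 24.4 after MS023 and Dex. All 4 groups were separate, with the 2 Dex groups close together and the MS023 libraries well above the untreated ones. Its induction was 2.98 alone and 1.73 after MS023. Leaving out 1 library put the ANPEP interaction between -1.42 and -1.11, and most such fits did not call it. JPH2, a junctophilin gene, had inductions of 2.53 and 1.49. TENT5B was induced by 1.24 alone and 0.42 after MS023, with 112 and 95 CPM against 66.6 and 70.0 under Dex. The 3 reversed responses were at ADM, which encodes the vasodilator peptide adrenomedullin, and at the histone genes H2AC14 and H3C10. ADM stood at 92.8 and 111 CPM in untreated cells, 126 and 153 with Dex, 243 and 256 after MS023, and 173 and 192 after MS023 and Dex. The Dex libraries were above the untreated ones, and those of MS023 and Dex were below those of MS023, which were the highest. The responses were 0.45 and -0.45, and the interaction was -0.91 (SE 0.158), with an adjusted p of 0.00220 by the edgeR quasi-likelihood and Benjamini-Hochberg procedure, with a call in 6 of the 8 fits that left out a library. It was lost without the first untreated library (adjusted p = 0.0669, same edgeR test) and without the second Dex library (0.0658).

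**Figure D2:**
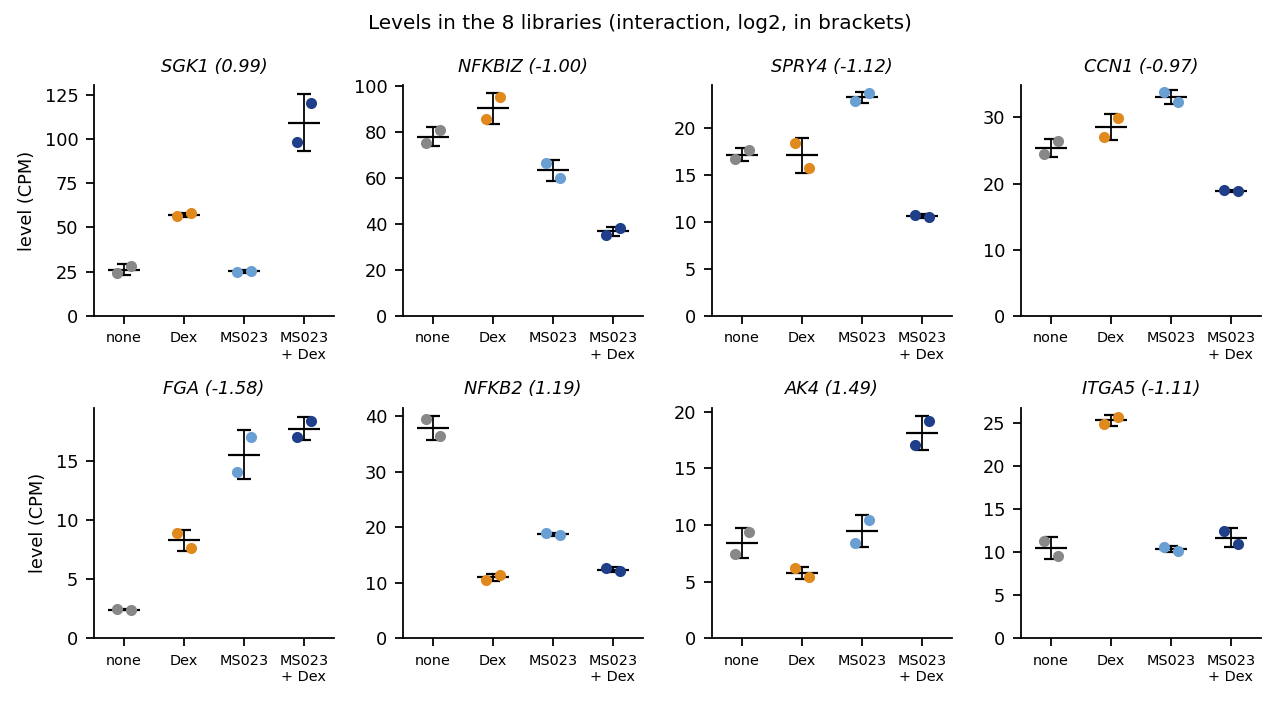
TMM-scaled CPM (y axis) of 8 genes in untreated cells, with Dex, after MS023 and after MS023 and Dex. Points are the 2 libraries of a group, and bars are the mean and SD. SGK1 and AK4 were highest with both agents, NFKBIZ, SPRY4 and CCN1 were lowest there, and ITGA5 was high with Dex alone.

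The interaction equals the difference that MS023 made to the level under Dex minus the difference it made before Dex. The 51 genes can thus be split by the end at which a difference with MS023 was called in the TMM scaling. At 21 genes the difference was called before Dex and not under Dex, at 18 it was called under Dex and not before, at 12 at both, and at none was neither called. The level before Dex was called for 3127 of all genes (13.6%) and that under Dex for 2645 (11.5%). At all 21 genes called before Dex only, the difference before Dex had the opposite sign to the interaction, which the subtraction itself favours. Among these, TPM2 (-1.22 before, -0.19 under), RELB (-1.32, 0.35) and LAMA3 (-0.81, 0.02) were lower with MS023 before Dex, and SNTB1 (3.19, 0.48), CCDC181 (1.60, -0.44) and ANPEP (1.54, 0.29) were higher. SGK1 (-0.06 before, 0.93 under), AK4 (0.16, 1.65), NFKBIZ (-0.30, -1.3), ITGA5 (-0.01, -1.11) and CRACDL (0.74, -1.43) were called under Dex only. FGA (2.67, 1.09), CCL2 (1.21, 2.67) and ADM (1.3, 0.39) were called at both ends. The weakened genes split 14, 11 and 6 over before only, under only and both, and the strengthened genes 7, 7 and 6. Total-count scaling moved the median difference of all genes to 1.02 before Dex and 0.85 under Dex. It turned the sign of 5 of the 33 differences called before Dex, but of none of the 51 interactions. The end at which a gene's level differed is thus relative to all genes and depends on the scaling.

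**Figure D3:**
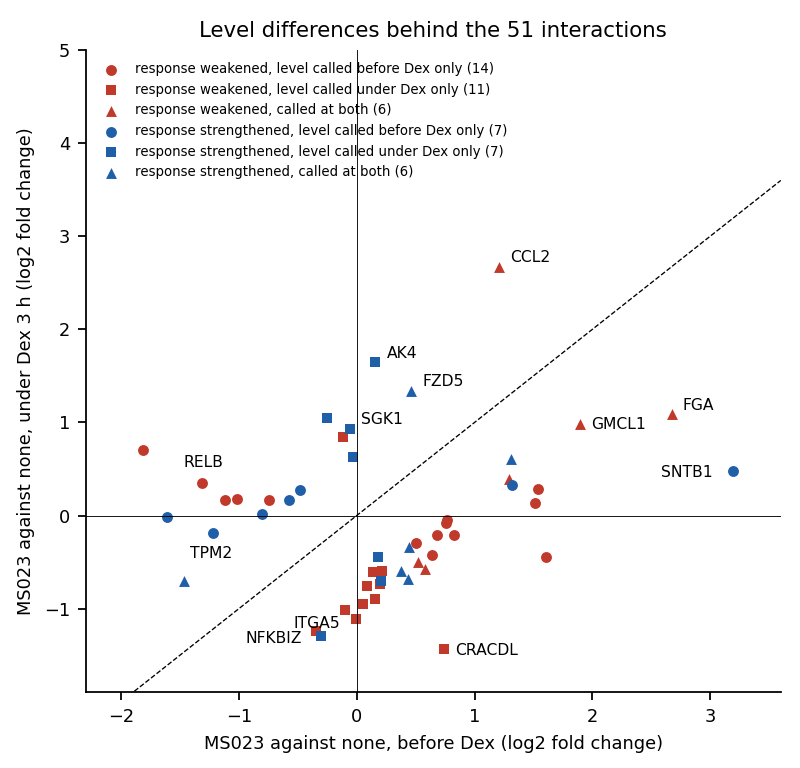
Log2 difference between cells with and without MS023 before Dex (x axis) and under Dex (y axis) for the 51 genes, with the dashed line at no interaction. AK4, SGK1, ITGA5 and NFKBIZ lie near 0 on the x axis, and SNTB1, TPM2 and RELB lie nearer 0 on the y axis.

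NF-kB genes held 5 of the called interactions, 4 higher and 1 lower among 22 tested, where 0.0785% and 0.144% of all genes were called higher and lower. The list's median interaction was 0.06 against -0.00 for all genes, and -0.11 against -0.17 under total-count scaling. The list was drawn up with earlier results known. NF-kB is a dimer of REL proteins held in the cytoplasm by inhibitors such as the product of NFKBIA. RELB and NFKB2 encode subunits of its noncanonical branch, NFKBIZ encodes a nuclear cofactor, and CCL2 is an inflammatory chemokine gene.

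The 5 promoters below are shown because 2 of them belong to NF-kB genes whose interactions had opposite signs and hold a match to a kB motif, 1 belongs to a subunit gene without a match, and 2 belong to the first weakened and first strengthened protein-coding gene with an entry. They run from 250 bases before to 50 bases after the annotated start, 5′ to 3′ on the gene's strand, from RefSeq on GRCh38.p14, and capitals mark the kB match. For genes with several starts the first entry is given.
NFKBIA (chr14:35404700-35404999, minus strand): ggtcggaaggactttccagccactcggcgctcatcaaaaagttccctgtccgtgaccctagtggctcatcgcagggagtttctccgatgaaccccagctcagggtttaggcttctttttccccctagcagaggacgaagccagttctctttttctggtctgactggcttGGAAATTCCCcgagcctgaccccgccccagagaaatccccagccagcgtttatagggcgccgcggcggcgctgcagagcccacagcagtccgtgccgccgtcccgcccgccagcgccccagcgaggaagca
NFKBIZ (chr3:101827740-101828039, plus strand): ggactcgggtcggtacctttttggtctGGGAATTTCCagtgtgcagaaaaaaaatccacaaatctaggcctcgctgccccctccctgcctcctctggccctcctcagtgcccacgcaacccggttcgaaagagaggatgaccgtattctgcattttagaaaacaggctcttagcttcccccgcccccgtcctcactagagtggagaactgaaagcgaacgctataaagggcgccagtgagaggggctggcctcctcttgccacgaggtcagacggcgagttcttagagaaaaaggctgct
NFKB2 (chr10:102393860-102394159, plus strand): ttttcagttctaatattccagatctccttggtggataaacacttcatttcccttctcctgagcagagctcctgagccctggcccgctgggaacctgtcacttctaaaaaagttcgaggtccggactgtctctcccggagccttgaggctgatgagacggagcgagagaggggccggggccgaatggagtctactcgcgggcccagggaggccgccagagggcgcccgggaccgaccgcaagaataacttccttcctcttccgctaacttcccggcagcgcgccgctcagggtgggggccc
CRACDL (chr2:98936176-98936475, minus strand): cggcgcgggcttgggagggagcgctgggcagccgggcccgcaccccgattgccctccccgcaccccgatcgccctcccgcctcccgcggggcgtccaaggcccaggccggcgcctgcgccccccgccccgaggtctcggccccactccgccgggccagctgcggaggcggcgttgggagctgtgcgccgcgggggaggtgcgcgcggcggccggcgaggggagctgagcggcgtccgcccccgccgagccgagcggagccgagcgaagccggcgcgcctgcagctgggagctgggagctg
AK4 (chr1:65147302-65147601, plus strand): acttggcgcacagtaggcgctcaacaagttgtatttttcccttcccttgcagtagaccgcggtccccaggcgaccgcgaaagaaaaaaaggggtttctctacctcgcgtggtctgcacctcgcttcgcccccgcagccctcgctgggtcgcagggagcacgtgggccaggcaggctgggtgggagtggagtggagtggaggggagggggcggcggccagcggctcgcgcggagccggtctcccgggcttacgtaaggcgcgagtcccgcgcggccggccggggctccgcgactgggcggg

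The motifs searched on both strands were GGGNNTTTCC for kB sites, GNACANNNTGTNC for glucocorticoid receptor sites and TGANTCA for AP-1 sites. Of 35116 promoters in the table, 1.91%, 0.390% and 7.71% held a match. Among the 37 of the 51 genes with an entry, the kB motif matched at NFKBIA, NFKBIZ and TPM2, the AP-1 motif at ITGA5, LAMA3 and TENT5B, and the receptor motif at none. A match is a description of letters, and no match says only that these letters are not in this window. NFKB2, NFKBIA and NFKBIZ were chosen for printing after their values were seen.

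RELB stood at 12.2 and 10.5 CPM in untreated cells, 2.66 and 3.05 with Dex, 5.10 and 3.98 after MS023, and 3.44 and 3.84 after MS023 and Dex. The untreated libraries were the highest, and those with Dex were the lowest. The response of RELB was -1.99 alone and -0.32 after MS023, the latter not called, with an interaction of 1.67 (SE 0.354), with an adjusted p of 0.0239 by the edgeR quasi-likelihood and Benjamini-Hochberg procedure, called in 2 of the 8 fits that left out a library. NFKB2 (chr10:102394110-102402529) had the same order of groups with more counts, at 39.4 and 36.4 CPM in untreated cells, 10.5 and 11.4 with Dex, 18.9 and 18.5 after MS023, and 12.7 and 12.0 after MS023 and Dex. The untreated libraries were the highest, those of MS023 came next, and the 2 Dex groups were the lowest and separate by a narrow margin. Its response was -1.79 alone and -0.60 after MS023, both called, with an interaction of 1.19 (SE 0.197) that was called in all 8 such fits.

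NFKBIA, which Dex is known to induce, stood at 65.8 and 79.4 CPM in untreated cells, 152 and 154 with Dex, 54.7 and 49.3 after MS023, and 175 and 193 after MS023 and Dex. The MS023 libraries were below the untreated ones and those of MS023 and Dex above those of Dex. Its induction was 1.07 alone and 1.82 after MS023, an interaction of 0.75 (SE 0.150), with an adjusted p of 0.0115 by the edgeR quasi-likelihood and Benjamini-Hochberg procedure, called in 4 of the 8 fits that left out a library. NFKBIZ (chr3:101827991-101861022) moved the other way, at 75.0 and 80.7 CPM in untreated cells, 85.4 and 95 with Dex, 66.4 and 60.0 after MS023, and 35.2 and 38.2 after MS023 and Dex. The libraries of MS023 and Dex were well below all others. Its response was 0.21 alone, not called, and -0.78 after MS023, with an interaction of -1.0 (SE 0.165) called in all 8 fits. CCL2 stood at 6.01 and 6.55 CPM in untreated cells, 2.23 and 2.08 with Dex, 16.6 and 12.4 after MS023, and 12.8 and 14.8 after MS023 and Dex. Every library with MS023 lay above the untreated ones, and Dex without MS023 gave the lowest levels. The response of CCL2 was -1.54 alone and, not called, -0.07 after MS023 (95% interval -0.42 to 0.28), with an interaction of 1.47 called in 1 of the 8 fits that left out a library. BIRC3 (1.11), TNFAIP3 (0.59), CXCL1 (-0.50) and CXCL8 (-1.37) had interactions that were not called.

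**Figure D4:**
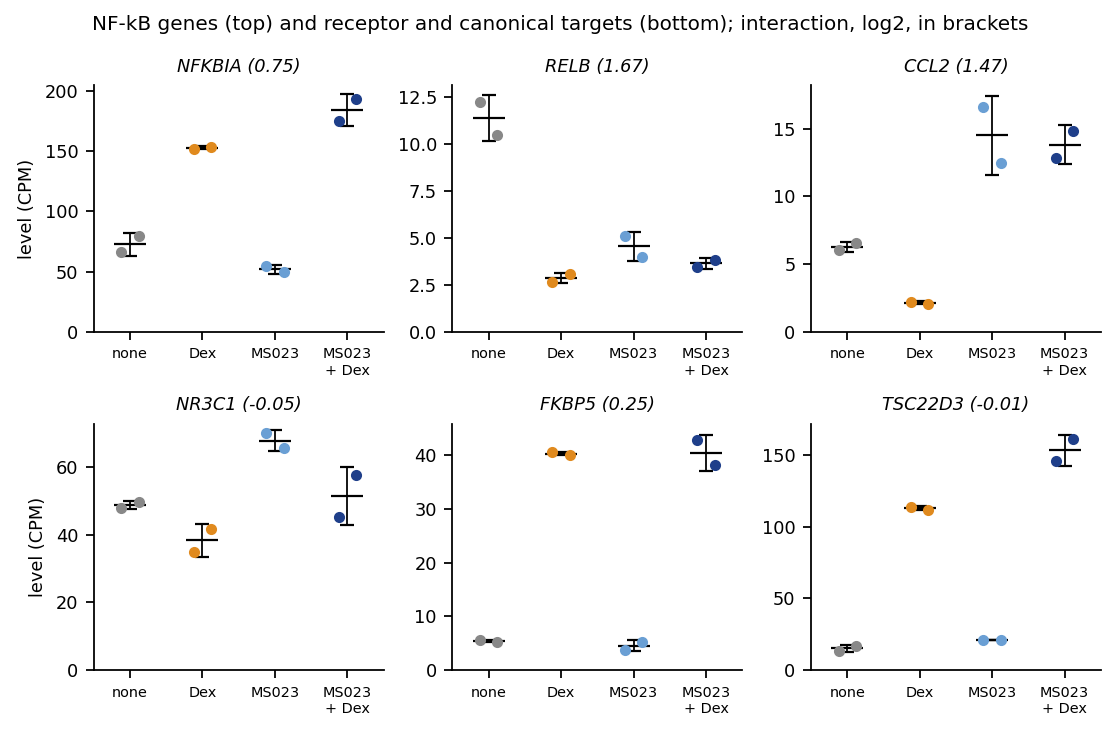
TMM-scaled CPM (y axis) of NFKBIA, RELB and CCL2 (top) and of NR3C1, FKBP5 and TSC22D3 (bottom) in the 4 groups, with the 2 libraries as points and the mean and SD as bars. RELB was high in untreated cells alone, CCL2 was high with MS023 in both arms, and FKBP5 and TSC22D3 rose with Dex in both arms.

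Most canonical glucocorticoid-induced genes responded in both arms. Of 39 tested, Dex raised 29 alone and 31 after MS023, where 6.11% and 5.72% of all genes were called higher, with medians of 1.07 and 0.92. Dex lowered 1 alone and 1 after MS023, where 4.41% and 5.38% of all genes were called lower. The list's median interaction was -0.21, with 15 positive and 24 negative values. SGK1 and NFKBIA were called, both higher, where 0.0785% of all genes were. By the edgeR test 18 of the 39 had an unadjusted p below 0.05, as did 2087 of all 22919 genes. Other fits also called members lower, 3 in the 4 groups alone, 3 with the replicate block and 4 without a filter on low counts. The median was -0.12 without the first untreated library, -0.12 without the second Dex library and -0.14 without the second MS023 library. FKBP5, a chaperone partner of the receptor and its feedback inhibitor, stood at 5.56 and 5.24 CPM in untreated cells, 40.5 and 40.1 with Dex, 3.82 and 5.28 after MS023, and 42.8 and 38.1 after MS023 and Dex. The 2 groups with Dex overlapped, as did the 2 without it. Its interaction was 0.25 (95% interval -0.54 to 1.05). TSC22D3, which encodes the anti-inflammatory protein GILZ, stood at 13.5 and 16.9 CPM in untreated cells, 114 and 112 with Dex, 20.8 and 20.9 after MS023, and 145 and 161 after MS023 and Dex. It was higher with MS023 before Dex (0.45) and under Dex (0.44), and the interaction was -0.01 (-0.37 to 0.34). PER1, a clock gene, was induced by 1.88 alone and 2.49 after MS023 from levels that differed by -0.77 between MS023 and untreated cells. Its interaction of 0.60 was not called, and its exons overlap 2 genes on its own strand. CDKN1C, a cell cycle inhibitor gene (-1.88), GADD45A (-0.71) and EDN1 (-0.78) had larger negative values that were not called in the fit of all groups. A value that misses the threshold does not show that the responses were alike.

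Of 21 glucocorticoid-repressed genes tested, Dex lowered 9 alone and 13 after MS023, where 4.41% and 5.38% of all genes were called lower. It raised 2 alone and 2 after MS023, where 6.11% and 5.72% of all genes were called higher. The list's median response was -0.78 alone and -0.97 after MS023. Its median interaction was -0.16, with 8 positive and 13 negative values. In the interaction CCL2 was called higher and CCN1 and CCN2 lower, where 0.0785% and 0.144% of all genes were called higher and lower. GREM1, a BMP antagonist gene, had responses of -3.41 alone and -2.42 after MS023, and DIO2, a deiodinase gene, -3.14 and -2.40. Their interactions of 0.99 and 0.74 were not called.

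NR3C1 itself (chr5:143277931-143435512) stood at 47.8 and 49.6 CPM in untreated cells, 34.8 and 41.8 with Dex, 69.9 and 65.5 after MS023, and 45.3 and 57.5 after MS023 and Dex. MS023 raised it by 0.48 before Dex and 0.43 under Dex, and its response to Dex was -0.35 alone and -0.40 after MS023, all 4 called. The MS023 libraries were the highest and the Dex libraries the lowest. Its interaction was -0.05 (95% interval -0.36 to 0.27). PRMT1 had responses to Dex of -0.78 alone and -0.44 after MS023, both called, with an interaction of 0.34 that was not called, and its exons overlap other genes on both strands. CARM1 was called in none of the 5 comparisons, with -0.33 for the interaction. By edgeR's test 0 of the 10 PRMT genes (2 at an unadjusted p below 0.05) and 0 of the 26 genes of the receptor and its partners (1 at that p) were called for the interaction.

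A larger set of 347 genes had a response to Dex called in the same direction in both arms, no called interaction, and a level that MS023 had shifted before Dex. The shift was upward at 208 and downward at 139 in the TMM scaling, where 7.13% and 6.51% of all genes were called higher and lower. Total-count scaling moved the median difference of all genes before Dex to 1.02, so these directions are relative to all genes. Dex raised 185 and lowered 162 of the 347. Under Dex the shift was still called in the same direction at 203, was not called at 143, and had turned at 1. For 245 of the 347 the 95% interval of the interaction lay within 1 log2 unit of 0 on either side, and its median half-width was 0.459. NUPR1, a stress-response gene, was the clearest upward shift, at 4.89 and 5.74 CPM in untreated cells, 10.8 and 7.08 with Dex, 38.6 and 44.2 after MS023, and 70.5 and 75.2 after MS023 and Dex. All 4 groups were separate and increased in that order. Dex raised it by 0.76 alone and 0.81 after MS023, and MS023 raised it by 2.95 before Dex and 3.01 under Dex. TGM2, a transglutaminase gene, was shifted downward, at 32.8 and 30.2 CPM in untreated cells, 56.3 and 47.5 with Dex, 7.22 and 7.17 after MS023, and 13.1 and 13.1 after MS023 and Dex. Both MS023 groups lay below both groups without it, and each rose with Dex, by 0.72 alone and 0.86 after MS023. SOCS2, a cytokine signalling inhibitor gene, differed by -1.63 with MS023 before Dex and responded to Dex by -1.91 alone and -1.25 after MS023. FLJ16779, an antisense RNA, had -1.81 with MS023 before Dex. TGM2, SOCS2 and FLJ16779 overlap exons on the opposite strand. AQP3, a water and glycerol channel gene (0.334 and 0.101 CPM untreated and 2.12 and 2.24 after MS023), and IGHV4-80 (0.111 and 0.202 and 2.20 and 1.66) had the largest upward shifts, from untreated levels of a few counts at most. Another 849 genes had a response called in the same direction in both arms with neither a called interaction nor a called shift before Dex.

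The size of the response was compared over genes chosen in libraries that enter neither arm, those of cells treated for 7 days with GSK591, a PRMT5 inhibitor, with and without Dex. Over the 1236 genes that Dex raised there (5.39% of all genes), the median response was 0.69 without inhibitor and 0.64 after MS023, with a median interaction of -0.05, and 553 had the larger value after MS023. Over the 1022 genes that Dex lowered there (4.46%), the medians were -0.55 and -0.60, with a median interaction of -0.05 and 575 larger in size after MS023. The median SE of a single gene's interaction was 0.383.

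Replication-dependent histone genes, which are transcribed mainly in S phase and encode the core and linker histones, had negative interactions throughout. The list was added after seeing the data, and the genes are near-identical copies whose reads the counting could split or drop, so single values are uncertain. All 51 tested had an interaction below 0, from -1.05 to -0.01 with a median of -0.49. Of these, 7 were called lower, where 0.144% of all genes were, at H2AC4, H2BC3, H2AC21, H4C1, H2AC14, H4C5 and H3C10. The median was -0.65 under total-count scaling, where that of all genes was -0.17, and 46 to 51 of the 51 stayed negative with a median between -0.65 and -0.37 when 1 library was left out, with 0 to 6 called. Summed over the 51 genes, the level was 2526 and 2886 CPM in untreated cells, 3096 and 3015 with Dex, 2463 and 2576 after MS023, and 1814 and 2197 after MS023 and Dex. Of these groups the Dex libraries were the highest and those of MS023 and Dex the lowest, with the untreated and MS023 groups overlapping. After 7 days of GSK591 the sums were 1276 and 1288 CPM without Dex and 1053 and 922 with Dex. A lower sum with Dex was thus seen after either inhibitor and was not particular to MS023.

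Within the histone genes, Dex alone raised 9 and lowered 1, where 6.11% and 4.41% of all genes were called higher and lower. Dex after MS023 raised none and lowered 11, where those shares were 5.72% and 5.38%. MS023 raised 3 and lowered 6 before Dex, where 7.13% and 6.51% of all genes were called higher and lower, and lowered 35 under Dex with none higher, where 6.11% and 5.43% of all genes were called lower and higher. Relative to all genes the median under Dex was -0.63 with TMM, while total-count scaling put it at 0.21 with 42 of 51 above 0, where all genes stood at 0.85. H2AC4 stood at 19.7 and 22.8 CPM in untreated cells, 28.3 and 36.8 with Dex, 23.5 and 23.8 after MS023, and 17.5 and 17.3 after MS023 and Dex. The Dex libraries were the highest, and the 2 libraries of MS023 and Dex were the lowest. Its interaction was -1.05 (SE 0.219), called in 2 of the 8 fits that left out a library. Of 37 DNA replication genes, also of S phase, edgeR called 0 for the interaction (4 at an unadjusted p below 0.05), with a median of 0.10. MS023 lowered 18 of them before Dex and 15 under Dex in the TMM scaling, but total-count scaling put their medians at 0.38 and 0.34, where all genes stood at 1.02 and 0.85, and that of the interaction at -0.06. The part of cell cycle distribution in the histone values was not tested.

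**Figure D5:**
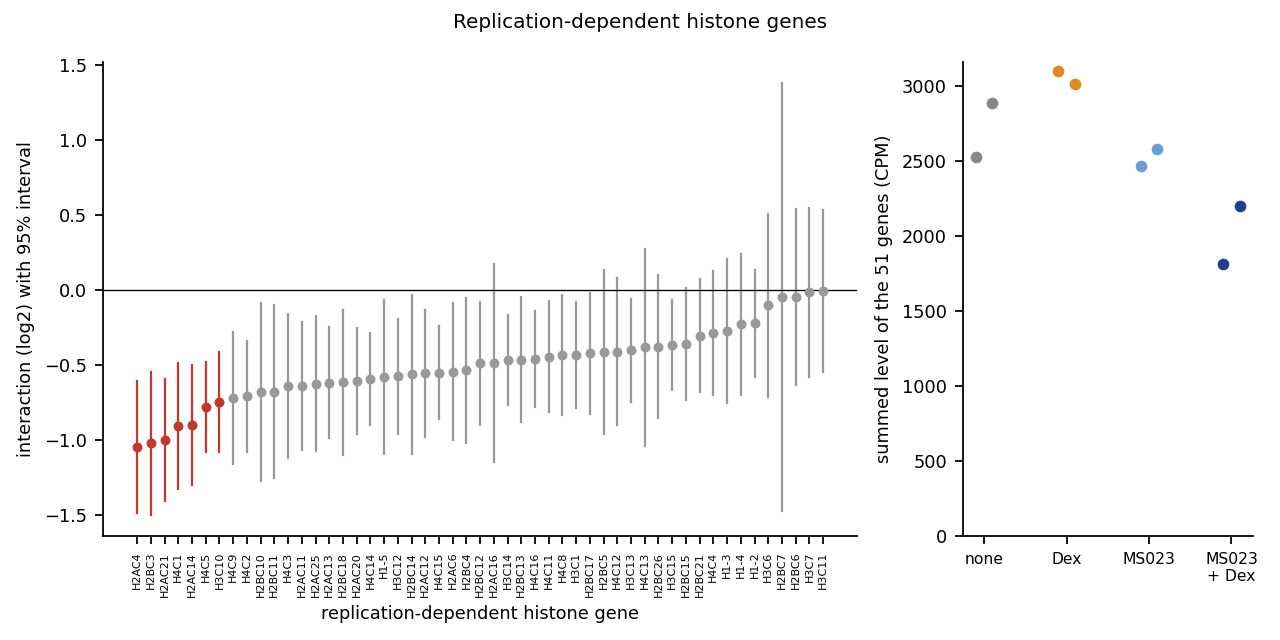
Left, interaction (log2, y axis) of each of the 51 replication-dependent histone genes with its 95% interval, called genes in red. Right, their summed TMM-scaled CPM in the 8 libraries by group. All 51 estimates lie below 0, and the 2 libraries of MS023 and Dex have the lowest sums.

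Other pathways held few called interactions. Of 20 cytoskeleton and matrix targets of SRF and YAP, CCN1 and CCN2 were called, both lower, where 0.144% of all genes were. The list's median was -0.30. ANKRD1, a YAP target, had responses of 1.23 to Dex alone and -0.03 after MS023, with an interaction of -1.26 that was not called. Under Dex, 9 of the 20 were called lower with MS023 in the TMM scaling, where 6.11% of all genes were, the actin genes ACTB and ACTG1 among them (-0.39 and -0.48). Total-count scaling instead called 0 lower and 7 higher, with the list's median at 0.51 and that of all genes at 0.85. Of 25 p53 targets GDF15 was called lower, where 0.144% of all genes were, with a list median of -0.27, 6 positive and 19 negative values. By edgeR's test 0 were called among 33 interferon-stimulated genes, 28 mitosis genes, 21 pausing and elongation factors, 20 integrated stress response genes and 17 AP-1 and immediate early genes. Of these lists, the AP-1 list had 8 members at an unadjusted p below 0.05, the stress response list 5, and the other 3 lists 2 each. Of all 22919 genes, 2087 were at such a p in the same edgeR test.

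The Dex response after MS023 was also set against that after GSK591 in a contrast added after seeing the data, which uses neither the untreated nor the Dex libraries. It reuses the 4 MS023 libraries by which the 51 genes were called, so its values for them are not independent of that choice. It called 18 genes (0.0785%), 3 of the 51 among them, SGK1, SPRY4 and TENT5B. SGK1 rose by 0.87 after GSK591 against 2.12 after MS023, a difference of 1.25 (SE 0.167), with an adjusted p of 1.25e-05 by the edgeR quasi-likelihood and Benjamini-Hochberg procedure. SPRY4 had responses of -0.06 after GSK591 and -1.13 after MS023, a difference of -1.06 (SE 0.195), and TENT5B 1.33 and 0.42, a difference of -0.90 (SE 0.153). The other 48 were not called, which does not show equal responses. NFKBIZ differed by -0.60 (95% interval -0.94 to -0.27), ITGA5 by -0.87 (-1.3 to -0.43), CCN1 by 0.20 (-0.13 to 0.54), ADM by -0.02 (-0.33 to 0.30) and H2AC4 by 0.29 (-0.24 to 0.82).

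The matching interaction with GSK591 called 51 genes too (0.223%), but it shares the untreated and Dex libraries with that of MS023, so the values are only set side by side. Of the 51 genes called with MS023, 49 had the same sign with GSK591 and 12 were called there as well. The shared libraries favour a shared sign. For SGK1 the values were 0.99 with MS023 and -0.26 with GSK591, for SPRY4 -1.12 and -0.06, for CCN1 -0.97 and -1.17, for ADM -0.91 and -0.89, and for S1PR3 -0.89 and -0.84. Dex for 15 min after MS023, against Dex for 15 min alone, gave 1 called interaction (0.00436%). It was FZD5, at 1.26, whose value at 3 h was 0.88 and which was chosen after its values were seen. The interactions at 15 min and 3 h share the untreated libraries and those of MS023 without Dex. The FZD5 values at these times are therefore not independent and are only set side by side. MS023 given together with Dex for 3 h, against Dex alone, called 45 genes (0.196%), with CCN2 the 1 of the 51 called among them (0.78). SGK1 had 0.37 there, not called, and SPRY4 -0.22. These values with both agents given together are differences of level under Dex, not interactions, so they are not set against the interactions above.

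The differences before Dex were also read at 2 and 4 days of MS023, against the same untreated libraries. FGA stood 3.04 above untreated cells at 2 days, 3.87 at 4 days and 2.67 at 7 days on the log2 scale. TPM2 had -0.74, -1.10 and -1.22, KRT87P -0.74, -1.25 and -1.46, and NFKB2 -0.72, -0.42 and -1.02. These had the same sign at all 3 times. CCL2 had -0.80, -1.48 and 1.21, so it was below untreated cells at 2 and 4 days and above them at 7 days. NFKBIZ had 0.53, 0.57 and -0.30, of which the last was not called. At 2 and 4 days 2381 (10.4%) and 3247 (14.2%) of all genes were called.

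As a set, the 51 genes were mostly protein coding (44, or 86.3%, against 65.4% of genes tested), with a median mean level of 22.8 CPM against 4.65, which bears on what the test can detect. Exons of 13 (25.5%) overlapped a gene on the opposite strand, against 35.7% of genes tested. The authors' deposited tables, which compare each treatment with untreated cells and whose counting is not given in the sources used here, list 36 of the 51 in all 3 tables needed. The tables describe the same libraries, so a shared sign is no independent check. The interaction computed from the authors' deposited tables had the same sign for 34 of the 36, with a median absolute value of 0.853. It was 1.12 for SGK1, -1.40 for SPRY4, -1.61 for FGA, -1.10 for ITGA5 and 1.51 for NFKB2. It was much smaller for other called genes, with -0.01 for GDF15 (-0.71 here), 0.11 for KRT87P (0.76), -0.12 for GMCL1 (-0.92), -0.18 for H2AC4 (-1.05) and -0.19 for PSMG3-AS1 (-1.16). The 2 that differed in sign were GGCX (-0.16 against 0.66 here) and ROMO1 (0.02 against -0.84).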

How the data were processed

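PRO-seq of A549 cells was deposited as 1 table of whole-number read counts per gene for 30 libraries. Per the submitters' processing notes the authors used Subread's featureCounts (2.0.1). Aligner, genome build, counted feature and strand setting are not given in the sources used here. The 58780 gene IDs all matched GENCODE 29, which gave positions and exon overlaps. Per the file headers, the authors' deposited comparison tables hold log2 fold changes and adjusted p-values against untreated cells, and the interaction from them is the fold change for MS023 and Dex minus those for MS023 and for Dex, without a test.

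Counts of all 15 groups were fitted together in edgeR (4.0.16, R 4.3.3) with TMM scaling, filterByExpr at a count of 10, and the robust quasi-likelihood test (15 residual degrees of freedom), so that 1 spread was shared. Adjustment was Benjamini-Hochberg over 22919 genes at 0.05. Intervals are 95%, per gene and unadjusted. Samples were grouped by their labels, and all libraries were used. The model was tested on simulated data for 22433 genes, where 6.67% of calls were false. Alternatives were other scalings, no filter, DESeq2 (1.42.0), the 4 groups alone, a replicate block, omission of mitochondrial and ribosomal RNA genes, and of each library.

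Genes and lists were chosen with earlier results of these data known. Named by rule were genes averaging 2 CPM or more among the 10 largest weakened and 10 largest strengthened interactions, the 3 highest and 3 lowest shifts before Dex, called members of the gene lists, and NR3C1, PRMT1, CARM1, FKBP5, TSC22D3 and PER1.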

Additional observations from a re-analysis of the deposited data

Results flagged for a closer look

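The interaction is itself a test of whether 2 arms respond differently, so each called gene differs between the arms by that test. The count was 51 of 22919 genes, a difference of response between cells with and without MS023.

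Among genes whose responses were enlarged or gained, the differences on the log2 scale were 0.99 for SGK1, 0.75 for NFKBIA, 1.60 for AC245041.1, 1.49 for AK4, 1.29 for GALNT18 and 1.03 for TPM2, all upward. The downward ones were -2.71 for SNTB1, -1.12 for SPRY4, -1.0 for NFKBIZ, -0.99 for CCN2, -0.97 for CCN1 and -0.71 for GDF15.

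Inductions that were lost or reduced gave -2.17 for CRACDL, -2.05 for CCDC181, -1.58 for FGA, -1.38 for AC027373.1, -1.25 for ANPEP and -1.16 for PSMG3-AS1. Repressions that were lost or reduced gave 1.67 for RELB, 1.47 for CCL2, 1.28 for GFPT2 and 1.19 for NFKB2.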

How the results depend on the processing

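All 51 called interactions kept their sign when any 1 library was left out, and 7 of them (LAMA3, GALNT18, CCDC181, GFPT2, MMD, SERTAD3 and JPH2) were then called in no such fit. Leaving out 1 library gave 10 to 82 interactions (2 to 33 higher, 6 to 49 lower), 4 to 53 weakened, 5 to 29 strengthened and 170 to 306 shifted genes. It gave 1394 to 2403 genes for Dex alone, 1474 to 2547 for Dex after MS023, 1568 to 3162 before Dex and 1286 to 2615 under Dex. A lone sample is then assumed to vary like the other groups.

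Total-count scaling called 0 interactions (0 higher, 0 lower, 0 weakened, 0 strengthened), 1259 genes for Dex alone, 1007 after MS023, 16196 before Dex and 13127 under Dex. Without a filter on low counts, over 53080 genes, 125 were called (45 higher, 80 lower, 83 weakened, 38 strengthened, 4 in no class). DESeq2 called 39, and 18 of the 51 had no adjusted p there. It gave 18 weakened, 3 in no class, 189 shifted, 1470 for Dex alone, 1477 after MS023, 1739 before and 1299 under Dex. The 4 groups alone gave 146 (66 higher, 80 lower, 105 weakened, 41 strengthened), with all 51 among them. DESeq2's size factors in edgeR gave 55, 50 of them shared. The cause of these differences was not tested.

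Replicate numbers are shared between groups, and deviations of same-numbered samples had correlations of -0.125 to 0.231 over 11117 genes. Whether same-numbered samples share more than a number was not tested. With the replicate block 81 interactions were called (56 lower, 50 weakened, 31 strengthened), all 51 among them.

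Of the called interactions, GGCX (-0.16) and ROMO1 (0.0235) had the other sign when computed from the authors' deposited tables. Interactions that were not called crossed 0 without 1 library at NR3C1, TSC22D3, NUPR1 and CARM1. With 2 libraries a group and 2421264 to 3478823 nuclear counts a library, simulated interactions of 0.5 on the log2 scale were not recovered, and depth was not varied in the simulation.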
